A study of Mus musculus with 6 samples.

Results

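The genes described here encode structural, motor and assembly proteins of the sperm flagellum and its axoneme, the microtubule core of the tail. A list of 40 genes was taken by symbol, and 37 of them had a probe set whose platform annotation named that symbol alone. Where a gene had several such probe sets, the one with the highest mean over the 6 arrays stood for the gene and the others served as a check, which gave 66 probe sets in all. Of these 37 genes, 35 passed the filter on dim probe sets and were tested. Fscb and Cfap44 had no probe set naming 1 gene, Tcte3 was named only together with other genes, and Dnah17 (1.21 to 7.23 intensity units over the arrays) and Rsph4a (1.94 to 19.3 units) were too dim to be tested.

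Testes of mice aged 8 weeks were profiled on Affymetrix mouse 430 2.0 arrays, with total RNA from 2 mice of each of 3 inbred strains. The strains were C57BL/6, AKR/N and MRL/MpJ+/+, written MRL/MpJ below; the +/+ marks the stock without the lpr mutation that gives MRL mice lymphoproliferative disease. No treatment, transgene or induced allele is named in the labels, and each array is taken as 1 mouse. In RNA of a whole organ, fewer cells of a type and less RNA per cell cannot be told apart. Every array had a trimmed mean of 125.001 units. Over the 29692 probe sets that passed the filter, replicates correlated at 0.980 to 0.985 on the log2 scale, and arrays of different strains at 0.960 to 0.974. The values are given in these scaled intensity units, and levels are compared only within a probe set.

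The axoneme has a ring of doublet microtubules around a central pair. Dynein arms on the doublets drive sliding, radial spokes carry signals from the central pair to the arms, and tektins lie inside the doublet wall. In mammalian sperm the axoneme is further wrapped by outer dense fibres along the midpiece and principal piece, and by the fibrous sheath along the principal piece, which anchors protein kinase A and glycolytic enzymes. The annulus, a septin ring, separates midpiece and principal piece. Transcription of many of these genes starts in late spermatocytes and peaks in spermatids, where the tail is built, and RFX factors, which bind X-box motifs, are among the regulators of ciliary and flagellar genes.

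Promoter windows of 300 bases around the annotated transcription starts (RefSeq, GRCm38.p6) were found for 33 of the 37 measured genes, as 46 windows. They are shown for 5 genes whose levels differed between strains below. The motif GTTGCC, one arm of the X-box, was searched on both strands. In the windows printed here, capitals mark each match, so that GGCAAC in capitals is a match on the opposite strand. For Akap3 the capitals mark a match to a longer X-box form (GTTGC, any base, A, any pair of bases, G, any base, then AAC), which shares its opening letters with the first motif and was added after the sequences had been seen. Each is written 5′ to 3′ on the gene's strand. Tekt2 had 3 annotated windows, of which 1 is shown, and Dnah8 held neither motif.
Akap3 (chr6:126852848-126853147, plus strand): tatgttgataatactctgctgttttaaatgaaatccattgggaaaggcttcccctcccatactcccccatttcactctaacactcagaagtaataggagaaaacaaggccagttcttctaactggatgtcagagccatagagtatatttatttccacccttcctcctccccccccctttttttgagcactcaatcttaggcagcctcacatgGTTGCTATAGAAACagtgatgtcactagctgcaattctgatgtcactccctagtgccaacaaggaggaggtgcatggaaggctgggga
Tekt2 (chr4:126325597-126325896, minus strand): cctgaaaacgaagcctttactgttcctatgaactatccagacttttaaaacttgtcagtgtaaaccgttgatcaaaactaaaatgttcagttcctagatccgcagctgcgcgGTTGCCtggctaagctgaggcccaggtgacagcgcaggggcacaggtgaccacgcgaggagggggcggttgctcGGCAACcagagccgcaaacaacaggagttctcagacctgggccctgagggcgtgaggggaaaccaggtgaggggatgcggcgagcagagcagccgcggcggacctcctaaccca
Spag16 (chr1:69826720-69827019, plus strand): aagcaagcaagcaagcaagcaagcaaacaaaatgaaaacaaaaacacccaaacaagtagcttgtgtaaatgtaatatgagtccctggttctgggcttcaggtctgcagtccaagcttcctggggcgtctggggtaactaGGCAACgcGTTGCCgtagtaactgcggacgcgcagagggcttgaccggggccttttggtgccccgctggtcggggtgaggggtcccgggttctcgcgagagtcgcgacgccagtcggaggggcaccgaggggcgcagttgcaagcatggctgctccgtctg
Spag6 (chr2:18698772-18699071, plus strand): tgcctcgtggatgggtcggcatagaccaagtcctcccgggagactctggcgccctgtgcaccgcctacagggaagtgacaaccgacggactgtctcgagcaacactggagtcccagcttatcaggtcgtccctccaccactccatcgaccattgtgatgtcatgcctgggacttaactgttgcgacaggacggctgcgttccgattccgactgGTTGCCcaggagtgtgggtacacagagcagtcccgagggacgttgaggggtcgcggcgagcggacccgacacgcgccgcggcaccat
Dnah8 (chr17:30626686-30626985, plus strand): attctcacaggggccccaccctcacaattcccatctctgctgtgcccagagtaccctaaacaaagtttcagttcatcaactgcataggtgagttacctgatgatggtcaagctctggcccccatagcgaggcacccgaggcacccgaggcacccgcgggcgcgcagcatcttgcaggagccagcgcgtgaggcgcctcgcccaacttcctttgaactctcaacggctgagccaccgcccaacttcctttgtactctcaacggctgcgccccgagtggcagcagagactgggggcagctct

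GTTGCC was present in the windows of 12 of these 33 genes (36.4%), against 14.1% of 27025 genes in the RefSeq table. The 12 were Cfap20, Dnai2, Hydin, Ift172, Ift88, Ropn1l, Septin4, Spag16, Spag6, Tekt1, Tekt2 and Tekt4. They come from every role described below except the outer dense fibres and radial spokes, whose Odf1 and Rsph1 had no window. The longer form was in the windows of Akap3 and Hydin, 6.06% of the 33 genes, against 0.426% of all genes. Because that form was added after these windows had been seen, its share cannot measure an excess. The looser arm GTTNCC was in 66.7% of the 33 genes against 48.8% of all, and an inverted pair of such arms at most 3 bases apart was in 0 of the 33, against 0.936% of all. The palindromic cyclic AMP response element TGACGTCA was in 0 of the 46 windows, against 1.79% of 32851 windows, and its arm TGACG was in 15.2% of the 33 genes against 23% of all. These matches describe letters in a fixed window and do not say that a factor binds there.

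The question put to the arrays was which genes differ in level between testes of the 3 strains. Differences are given as log2(intensity + 16), second strain subtracted, with the standard error (SE) from 1 limma fit to all 6 arrays. A gene is called higher or lower where its adjusted p (limma, Benjamini-Hochberg over 29692 probe sets) was below 0.05. Of the 35 tested flagellum genes, 17 were called in at least 1 of the 3 pairwise comparisons, 9 in a single comparison and 8 in a pair of them. The share of all probe sets called in at least 1 pairwise comparison was not counted, so the 17 cannot be read as an excess. The moderated F test over the strains called 15 (42.9%), against 15.1% of all probe sets tested and 31.5% of genes with a mean of at least 300 units, a level that 33 of the 35 flagellum genes reached.

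In MRL/MpJ against C57BL/6, 9 of the 35 were called (25.7%, 2 higher and 7 lower), where 10% of all probe sets were called (5.07% higher and 4.95% lower) and 19.6% of genes with a mean of at least 300 units. Akap3, Ropn1, Cabyr, Tekt2, Spag6, Cfap69 and Septin4 were lower in MRL/MpJ, and Dnah8 and Dnali1 were higher. In AKR/N against C57BL/6, 8 were called (22.9%, 2 higher and 6 lower), against a background of 9.97% of probe sets (5.09% higher and 4.88% lower) and 18.6% of the brighter genes. Akap3, Dnai1, Rsph1, Spag16, Cfap43 and Septin4 were lower in AKR/N, and Akap4 and Akap14 were higher. In MRL/MpJ against AKR/N, 8 were called (22.9%, 3 higher and 5 lower), against 6.91% of probe sets (3.22% higher and 3.69% lower) and 17.7% of the brighter genes. Dnah8, Rsph1 and Cfap43 were higher in MRL/MpJ, and Akap4, Cabyr, Tekt2, Dnai2 and Dnajb13 were lower. These directions are those of the brightest probe set of each gene. Other probe sets of Dnali1 and Cfap43 were called the opposite way, as given below. The 3 comparisons share arrays pairwise, so a gene called against the same strain in both is not 2 independent results.

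The calls were mostly of modest size, between 0.20 and 0.74 on the log2 scale. With the variance fitted without its trend on mean intensity, 23 of these 25 calls were lost, and the 2 that stayed were those of Akap3. With no filter on dim probe sets 8 were lost (Akap4 and Rsph1 in both comparisons, Ropn1, Dnajb13, Spag16 and Cfap69), and median centring ended those of Ropn1, Spag16, Cfap69, Rsph1 in AKR/N against C57BL/6 and Septin4 in MRL/MpJ.

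**Figure D1:**
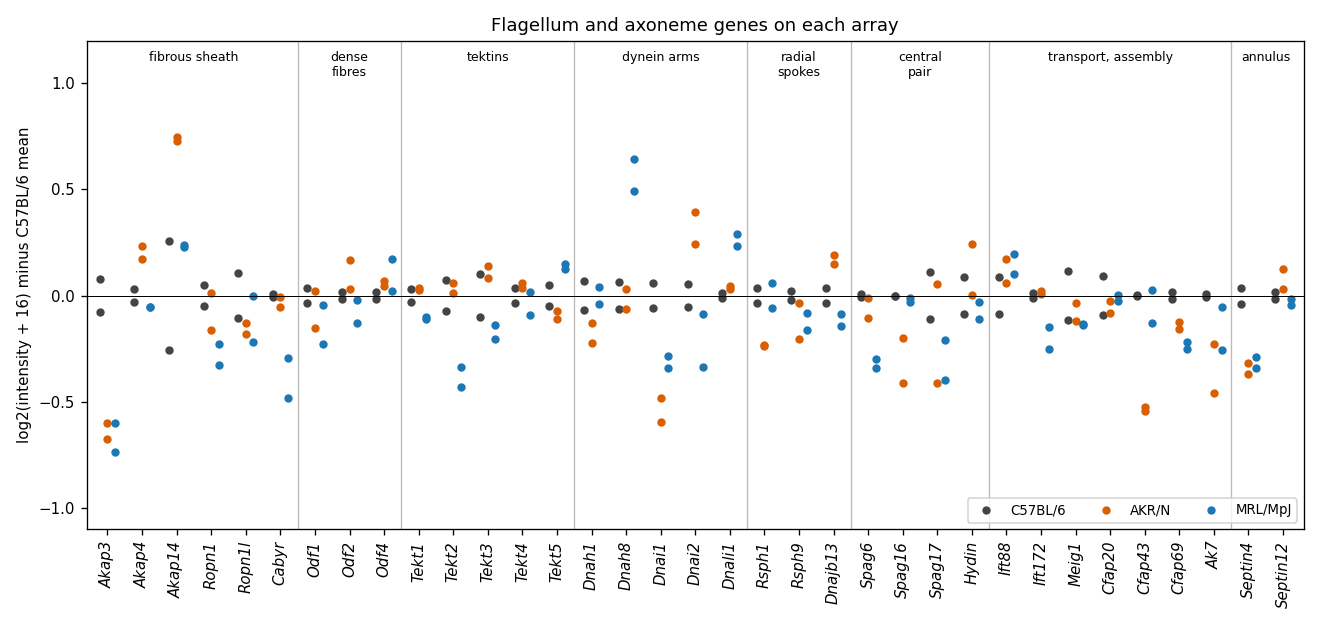
Level of each of the 35 tested flagellum genes on each array, as log2(intensity + 16) minus the C57BL/6 mean of that gene. The x axis groups the genes by structural role, each point is 1 array and colours mark the strains. Akap3 has all 4 AKR/N and MRL/MpJ points well below zero, and Dnah8 has its MRL/MpJ points above the others. The MRL/MpJ points lie below the other 4 arrays for 13 genes, an order seen in 11.7% of all probe sets tested.

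Of the 6 measured fibrous sheath genes, 3 were called lower in MRL/MpJ than in C57BL/6 and none higher, beside 4.95% of all probe sets and 10.9% of genes with a mean of at least 300 units called lower. In AKR/N against C57BL/6, 2 were called higher and 1 lower, beside 5.09% and 4.88% of all probe sets. Among genes with a mean of at least 300 units these shares were 9.79% and 8.82%. Akap3, which encodes a kinase-anchoring protein of the fibrous sheath, had 6258 and 6950.5 units in the C57BL/6 mice, 4118 and 4351 in AKR/N and 3953 and 4346 in MRL/MpJ. Both C57BL/6 arrays were thus above all 4 others, while AKR/N and MRL/MpJ overlapped. The difference from C57BL/6 was -0.64 in AKR/N (SE 0.0707, adjusted p = 0.000253) and -0.67 in MRL/MpJ (adjusted p = 0.000186). MRL/MpJ minus AKR/N was -0.03 (adjusted p = 0.879). A dimmer second Akap3 probe set was lower too, by smaller and uncalled differences (-0.18, adjusted p = 0.209, in AKR/N and -0.25, adjusted p = 0.0828, in MRL/MpJ).

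Akap4, on the X chromosome, encodes the main structural protein of the fibrous sheath. It had 4829.9 and 4629 units in C57BL/6, 5321 and 5556 in AKR/N and 4553 and 4549.7 in MRL/MpJ, so both AKR/N arrays were the highest. It was called higher in AKR/N than in C57BL/6 by 0.20 (SE 0.0557, adjusted p = 0.0462) and lower in MRL/MpJ than in AKR/N (-0.26, adjusted p = 0.0211). The first call was lost when any of the 6 arrays was left out (adjusted p of 0.0562 to 0.279), and the second without any of the 4 arrays compared (0.0851 to 0.196). The 2 other Akap4 probe sets had differences of 0.05 and 0.01 for AKR/N minus C57BL/6. Akap14, the other X-linked gene of the set and a kinase-anchoring protein of cilia and flagella, had 245 and 167 units in C57BL/6, 345 and 349.8 in AKR/N and 241 and 239.5 in MRL/MpJ. The AKR/N arrays again lay above all others, by 0.74 over C57BL/6 (SE 0.144, adjusted p = 0.00874). Leaving out AKR/N replicate 1 or 2 gave an adjusted p of 0.0562 or 0.0653.

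Cabyr, a calcium-binding protein of the fibrous sheath, had 3065 and 3097 units in C57BL/6, 3062 and 2971 in AKR/N and 2202 and 2510.1 in MRL/MpJ. Both MRL/MpJ arrays were below the others, by -0.39 against C57BL/6 (SE 0.0701, adjusted p = 0.00574) and -0.36 against AKR/N (adjusted p = 0.0127). The second call was lost without AKR/N replicate 1 (adjusted p = 0.103), AKR/N replicate 2 (0.0784) or MRL/MpJ replicate 1 (0.0897). Its 2 other probe sets gave -0.01 (adjusted p = 0.932) and -0.49 (adjusted p = 0.0052) for MRL/MpJ minus C57BL/6. Ropn1, which binds the kinase anchors through a regulatory-subunit-like domain, had 4025 and 4306 units in C57BL/6, 3723 and 4198 in AKR/N and 3314 and 3553 in MRL/MpJ. Its MRL/MpJ arrays were the lowest, by -0.28 against C57BL/6 (SE 0.0723, adjusted p = 0.035), a call lost when any of those 4 arrays was left out (0.0629 to 0.189). Its relative Ropn1l was not called, with differences of -0.11, -0.15 and 0.04 (adjusted p of 0.472, 0.301 and 0.841).

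By their brightest probe sets, 0 of the 3 outer dense fibre genes were called by limma in each comparison, and at an unadjusted p below 0.05 there were 0, 0 and 1. Odf1, a cysteine-rich structural protein of the fibres, was the brightest probe set of this group. It had 6218 and 6534 units in C57BL/6, 5725 and 6461 in AKR/N and 5431 and 6174 in MRL/MpJ, with a difference of -0.14 between MRL/MpJ and C57BL/6 (SE 0.0767, adjusted p = 0.307). Of its 2 dimmer probe sets, 1 was called lower in MRL/MpJ than in C57BL/6 (-0.61, adjusted p = 0.043) and than in AKR/N (-0.79, adjusted p = 0.0183), at 1266 and 866 units in C57BL/6, 1144 and 1231 in AKR/N and 581 and 796 in MRL/MpJ. The brightest probe sets of Odf2, a scaffold protein of fibres and centrosomes, and of Odf4 differed by at most 0.17 on the log2 scale in size between any strains. A dim further Odf2 probe set reached 0.42 for AKR/N minus C57BL/6 (adjusted p = 0.2), and no Odf2 probe set was called.

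Among the 5 tektins, Tekt2 alone was called. It had 2563 and 2315 units in C57BL/6, 2456 and 2534 in AKR/N and 1806 and 1925 in MRL/MpJ. Both MRL/MpJ arrays lay below the other 4, by -0.38 against C57BL/6 (SE 0.0695, adjusted p = 0.00589) and -0.42 against AKR/N (adjusted p = 0.0054). The first call was lost without MRL/MpJ replicate 1 (adjusted p = 0.0524) and the second without AKR/N replicate 2 (0.0648). Tekt3 came next in size for MRL/MpJ minus AKR/N, at -0.28 (adjusted p = 0.0658), and Tekt1 (-0.14), Tekt4 (-0.09) and Tekt5 (0.23) were not called.

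Of the 5 tested dynein arm genes, 2 were called higher in MRL/MpJ than in C57BL/6. The share called higher was 5.07% of all probe sets and 8.69% of genes with a mean of at least 300 units. Of these 2 genes, Dnali1 had another probe set called lower. In AKR/N against C57BL/6, 1 was called lower, beside 4.88% and 8.82%. In MRL/MpJ against AKR/N, 1 was called higher and 1 lower, beside 3.22% and 3.69% of all probe sets. Among genes with a mean of at least 300 units these shares were 6.87% and 10.8%. Dnah8, a heavy chain of the sperm outer arm, had 3032 and 3309 units in C57BL/6, 3030.3 and 3234 in AKR/N and 4457 and 4958 in MRL/MpJ. The MRL/MpJ arrays stood above all others, by 0.57 over C57BL/6 (SE 0.0723, adjusted p = 0.000683) and 0.58 over AKR/N (adjusted p = 0.000845), and AKR/N minus C57BL/6 was -0.02 (adjusted p = 0.925). Both calls held with any 1 array left out. The other Dnah8 probe set was dim, at 16.7 to 41.4 units, and gave 0.49 (adjusted p = 0.256) and 0.45 (adjusted p = 0.354).

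Dnai1, an outer-arm intermediate chain, had 471 and 512 units in C57BL/6, 319 and 347 in AKR/N and 384 and 401 in MRL/MpJ. The 3 strains did not overlap, and AKR/N was the lowest, by -0.54 against C57BL/6 (SE 0.0885, adjusted p = 0.00337); MRL/MpJ minus C57BL/6 was -0.31 (adjusted p = 0.0508). The second Dnai1 probe set, at 467 and 518, 344 and 337, and 373 and 346 units, was called lower in both strains (-0.51, adjusted p = 0.0049, and -0.44, adjusted p = 0.012). Dnai2, the partner intermediate chain, had 401 and 372 units in C57BL/6, 512 and 460.1 in AKR/N and 363 and 302 in MRL/MpJ. It was called lower in MRL/MpJ than in AKR/N (-0.53, SE 0.105, adjusted p = 0.0133), a call lost without AKR/N replicate 1 or MRL/MpJ replicate 2 (0.115 in each case). A second, dim Dnai2 probe set gave 0.51 with an adjusted p of 0.351.

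Dnali1, a light intermediate chain of inner arms, gave opposed answers from its probe sets. The brighter one had 988 and 973 units in C57BL/6, 1012 and 1002 in AKR/N and 1156 and 1201 in MRL/MpJ, and was called higher in MRL/MpJ than in C57BL/6 (0.26, SE 0.0665, adjusted p = 0.0317; 0.0582 to 0.167 with any 1 of the 6 arrays left out). The other had 1199 and 1103, 785 and 766, and 725 and 784 units in the same order, and was called lower in MRL/MpJ (-0.60, adjusted p = 0.000694) and in AKR/N (-0.56, adjusted p = 0.0011). No strain direction is therefore given for Dnali1 as a gene. Dnah1, an inner-arm heavy chain, was not called, with differences of 0.00, -0.17 and 0.17.

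Among the 3 tested radial spoke genes, Rsph1, a spoke head protein, was lower in AKR/N. It had 4892 and 5123 units in C57BL/6, 4240.4 and 4258 in AKR/N and 4813 and 5217 in MRL/MpJ, so that the AKR/N arrays lay below a shared range of the other strains. It differed by -0.24 from C57BL/6 (SE 0.06, adjusted p = 0.0324), and MRL/MpJ minus AKR/N was 0.24 (adjusted p = 0.041). The first call was lost without any of its 4 arrays (0.0599 to 0.178), and the second without any array but C57BL/6 replicate 2 (0.0504 to 0.235). Dnajb13, a co-chaperone that is part of the spoke, had 2180.3 and 2069 units in C57BL/6, 2358 and 2424 in AKR/N and 1923 and 1998 in MRL/MpJ. The 3 strains did not overlap, with MRL/MpJ lowest, by -0.28 against AKR/N (SE 0.0621, adjusted p = 0.0213; 0.0693 to 0.168 without any of those 4 arrays). Rsph9, another spoke head protein, was not called (-0.12, -0.12 and 0.00).

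Spag6, a central pair protein whose homologue in Chlamydomonas is PF16, had 781 and 774 units in C57BL/6, 721 and 771 in AKR/N and 629.8 and 611 in MRL/MpJ. The MRL/MpJ arrays were the lowest, by -0.32 against C57BL/6 (SE 0.0738, adjusted p = 0.0209; 0.071 to 0.118 without any of those 4 arrays), and by -0.26 against AKR/N (adjusted p = 0.0646). Its close paralogue Spag6l, which is on the wider list and is set beside it because of the shared sequence, had 1421 and 1521 units in C57BL/6, 1321 and 1367 in AKR/N and 1723 and 1771 in MRL/MpJ. There the MRL/MpJ arrays were the highest, by 0.25 over C57BL/6 (adjusted p = 0.0399) and 0.38 over AKR/N (adjusted p = 0.00738). How far each probe set also reads the other paralogue was not tested. Spag16, a central pair protein matching Chlamydomonas PF20, had 967 and 967 units in C57BL/6, 723 and 839 in AKR/N and 947 and 957 in MRL/MpJ. It was called lower in AKR/N than in C57BL/6 (-0.31, SE 0.0814, adjusted p = 0.0391), with adjusted p of 0.105 and 0.141 without either C57BL/6 array 0.28 without AKR/N replicate 1, and 0.0582 and 0.0583 without either MRL/MpJ array. Its next probe set gave 0.20 (adjusted p = 0.384). The mean of all its probe sets, which includes ones too dim to be tested, gave -0.04 (adjusted p = 0.9). Spag17 and Hydin, both central pair projection proteins, were not called, although a second Spag17 probe set was lower in AKR/N than in C57BL/6 (-0.79, adjusted p = 0.0068).

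Of 7 tested genes for transport, assembly and associated proteins, Cfap43 had the lowest adjusted p. Its brightest probe set had 1017 and 1017 units in C57BL/6, 694 and 703 in AKR/N and 929 and 1037 in MRL/MpJ. The AKR/N arrays were the lowest, by -0.53 against C57BL/6 (SE 0.0755, adjusted p = 0.00135), with MRL/MpJ 0.48 above AKR/N (adjusted p = 0.00394). A second Cfap43 probe set had 179 and 234, 448 and 399, and 232 and 250.1 units in the same order, and was called the opposite way: 0.99 for AKR/N minus C57BL/6 (adjusted p = 0.000607) and -0.77 for MRL/MpJ minus AKR/N (adjusted p = 0.00459). A change in total Cfap43 RNA is therefore not given, only that the 2 probe sets changed relative to each other.

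Cfap69, a protein needed for an intact sperm axoneme in mice, had 1901 and 1859.6 units in C57BL/6, 1686 and 1721 in AKR/N and 1614 and 1577 in MRL/MpJ. The 3 strains did not overlap, and MRL/MpJ was called lower than C57BL/6 (-0.23, SE 0.0612, adjusted p = 0.0355; 0.0656 to 0.156 with any 1 of the 6 arrays left out). Its 2 other probe sets gave -0.21 (adjusted p = 0.113) and 0.21 (adjusted p = 0.265), and the mean of all its probe sets -0.08 (adjusted p = 0.583). The intraflagellar transport genes Ift88 and Ift172, and Meig1, Cfap20 and the adenylate kinase Ak7, were not called in any comparison. Closest to the threshold were Ak7 in AKR/N (-0.34, adjusted p = 0.0513) and Ift172 in MRL/MpJ (-0.20 against C57BL/6, adjusted p = 0.0699, and -0.22 against AKR/N, adjusted p = 0.0673).

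Of the annulus septins, Septin4 was lower in both strains than in C57BL/6. It had 801 and 759.5 units in C57BL/6, 622 and 601 in AKR/N and 612 and 636 in MRL/MpJ, so that C57BL/6 lay above a shared range of the other strains. The differences were -0.34 in AKR/N (SE 0.0748, adjusted p = 0.0152) and -0.32 in MRL/MpJ (adjusted p = 0.023). The AKR/N call was lost with C57BL/6 replicate 1 left out (0.0667) or with either AKR/N array left out (0.0687 and 0.115). The MRL/MpJ call was lost with any of its 4 arrays left out (0.0506 to 0.136). The second Septin4 probe set gave -0.24 and -0.22, neither called. Septin12, a partner septin of the annulus, was not called, with differences of -0.03, 0.08 and -0.11.

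**Figure D2:**
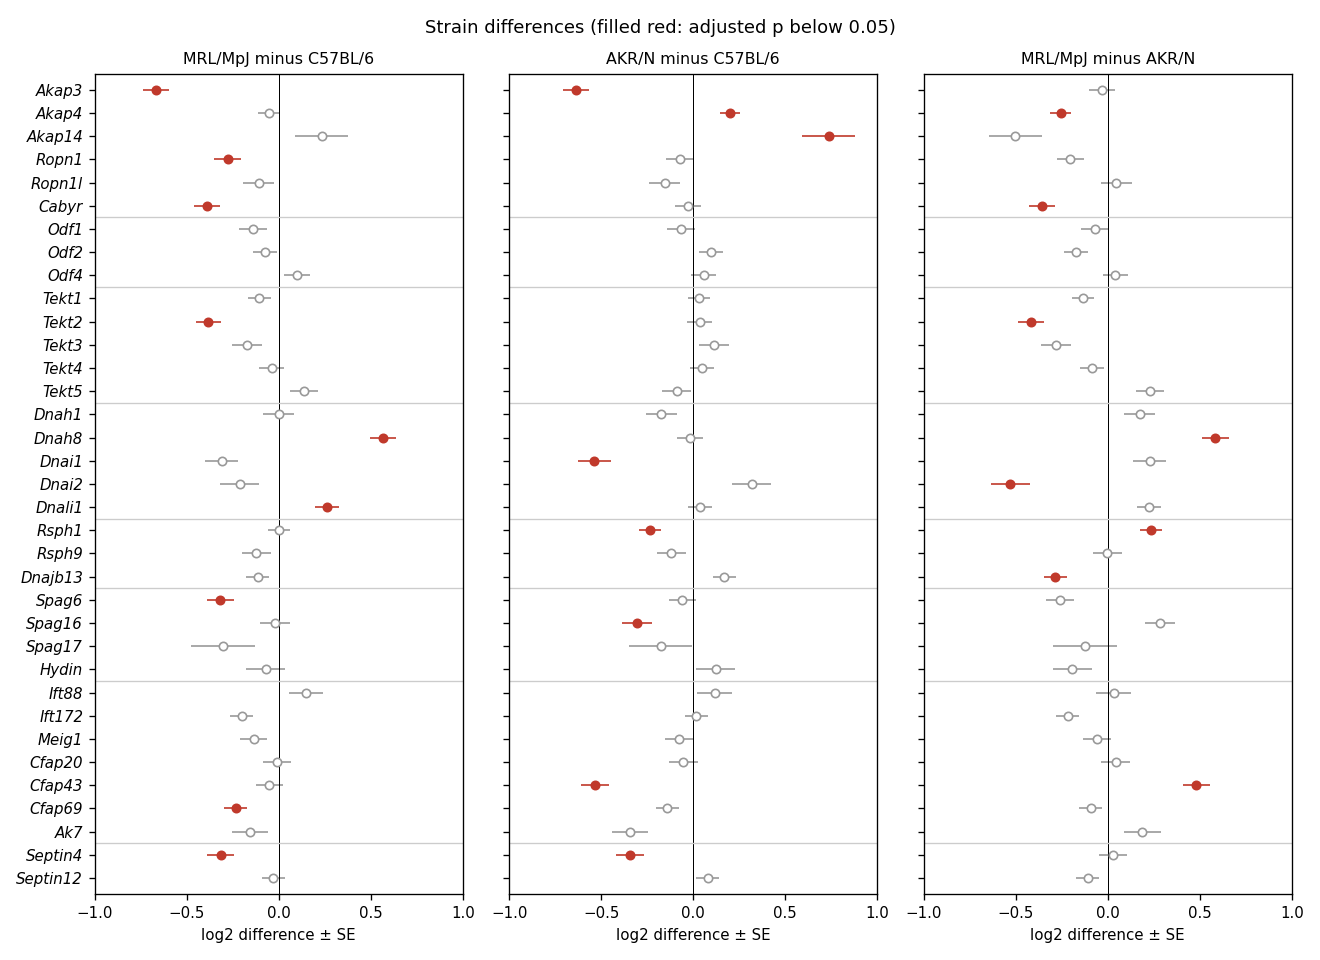
Difference between strains for each of the 35 tested flagellum genes, in log2(intensity + 16), 1 panel per pairwise comparison. Points are limma estimates with bars of 1 SE, and filled red points have an adjusted p below 0.05: 9, 8 and 8 genes in the 3 panels, with Akap3 near -0.67 and -0.64 against C57BL/6 and Dnah8 near 0.57 and 0.58 in the MRL/MpJ panels.

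Across the 35 genes the median difference of MRL/MpJ from C57BL/6 was -0.11, beside 0.01 over all probe sets tested. For AKR/N minus C57BL/6 it was -0.05, beside 0.00 over all, and for MRL/MpJ minus AKR/N -0.07, beside 0.02. Estimates for MRL/MpJ were below C57BL/6 in 28 of the 35 genes, in 22 after quantile normalization and in 23 after centring each array on its median. The MRL/MpJ median against C57BL/6 shrank to -0.04 and -0.06 under these scalings, and to -0.06 without MRL/MpJ replicate 1. The median for AKR/N minus C57BL/6 was -0.011 under each scaling and turned to 0.012 without AKR/N replicate 1. That for MRL/MpJ minus AKR/N was -0.0267 after quantile normalization and -0.0157 without AKR/N replicate 2. Both MRL/MpJ arrays lay below all 4 others for 13 of the 35 genes, an order seen in 11.7% of all probe sets. They lay above all 4 others for 3 genes, against 13.3%. Both AKR/N arrays were below all 4 others for 6 genes, against 12.6% of probe sets, and above them for 6, against 11.6%. Both C57BL/6 arrays were above all 4 others for 9 genes, against 13.5%, and below them for 2, against 14.9%. These shares are over all probe sets tested, whereas 33 of the 35 genes had a mean of at least 300 units. The shares among genes that bright were not counted.

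Of the 18 genes with several probe sets tested, every other probe set moved the same way as the brightest one in 13 for MRL/MpJ minus C57BL/6, in 7 for AKR/N minus C57BL/6 and in 10 for MRL/MpJ minus AKR/N. The 17 remaining genes rest on 1 tested probe set. Dnali1 and Cfap43 were the genes where 2 probe sets were called in opposite directions. Sequence differences between the strains beneath individual probes, and differences in transcript ends or splicing, were not tested.

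**Figure D3:**
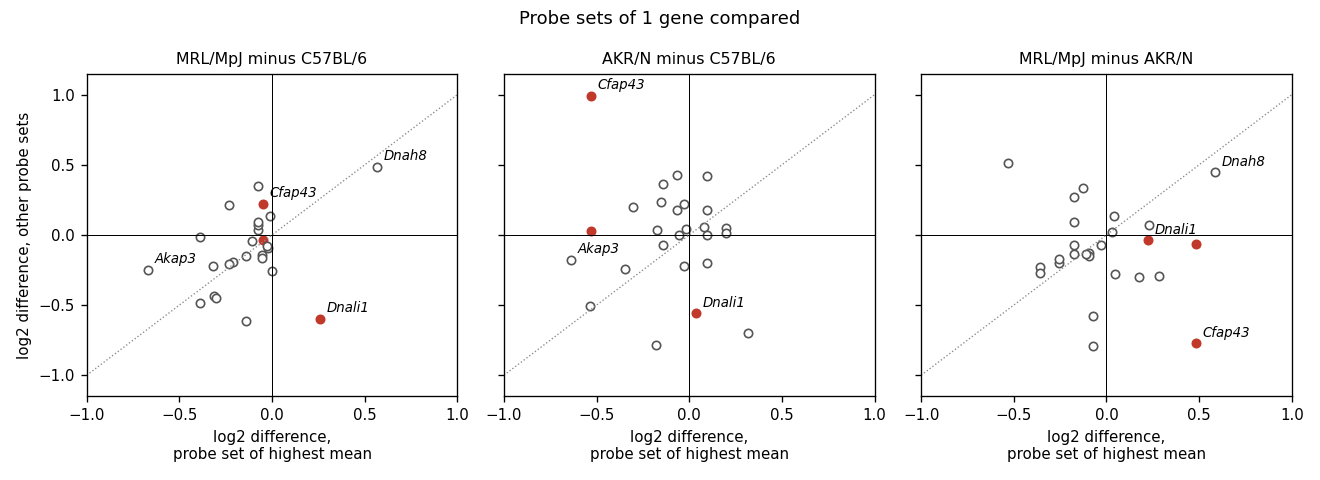
Log2 difference between strains from the brightest probe set of a gene (x axis) against that from each of its other tested probe sets (y axis), 1 panel per comparison, for the 18 genes with several tested. Cfap43 and Dnali1, in red, have points in opposite quadrants, such as -0.53 against 0.99 for Cfap43 and 0.26 against -0.60 for Dnali1.

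Markers of the cells that carry flagella were compared as well. A list of 18 acrosomal and other round spermatid genes was taken from outside the flagellum lists. It includes Catsper1 and Sun5, so it is not free of genes with a part in the tail. Its summed level was 82.4% and 84.7% of the C57BL/6 mean in the MRL/MpJ mice, and 99.4% and 102% in AKR/N. Of those 18 genes, 8 were called lower in MRL/MpJ than in C57BL/6, where 4.95% of all probe sets and 10.9% of genes with a mean of at least 300 units were. Against AKR/N 9 were lower, beside 3.69% and 10.8%. In AKR/N against C57BL/6 limma called 0, and 0 had an unadjusted p below 0.05. The summed level of the 37 flagellum genes was 88.9% and 94.8% of the C57BL/6 mean in MRL/MpJ, and 92.5% and 97.2% in AKR/N. Elongating spermatid genes (10, outside the flagellum lists) summed to 86% and 96.1% in MRL/MpJ and 90.7% and 94.5% in AKR/N. Of these 10, limma called 0 in MRL/MpJ against C57BL/6 and 0 in AKR/N against C57BL/6. In MRL/MpJ against AKR/N 1 was called lower, beside 3.69% of all probe sets.

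Spermatocyte genes (16) summed to 86.1% and 79.2% in AKR/N and 102% and 97.9% in MRL/MpJ. Of these 16, 3 were called higher and 4 lower in MRL/MpJ than in C57BL/6, beside 5.07% and 4.95% of all probe sets. In AKR/N against C57BL/6, 1 was called higher and 5 lower, beside 5.09% and 4.88%. In MRL/MpJ against AKR/N, 8 were called higher and 1 lower, beside 3.22% and 3.69%. Sertoli cell genes were at 117% and 120% in AKR/N and 101% and 103% in MRL/MpJ. Leydig cell genes (6) were at 160% and 175% in AKR/N and 162% and 167% in MRL/MpJ. The 11 measured markers of multiciliated epithelium and ducts, where axonemal genes are also expressed, summed to 2062 and 1950.1 units in C57BL/6, 2413 and 2393 in AKR/N and 1666 and 1741 in MRL/MpJ. Most of each sum was Deup1, at 1243 to 1835 units, and Scgb1a1 was the marker below 20 units on every array. Of the 8 tested, 2 were called higher and 1 lower in AKR/N than in C57BL/6, beside 5.09% and 4.88% of all probe sets. In MRL/MpJ, 1 was called lower than in C57BL/6, beside 4.95%, and 2 lower than in AKR/N, beside 3.69%. The part of cell composition in the flagellum differences was not tested.

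**Figure D4:**
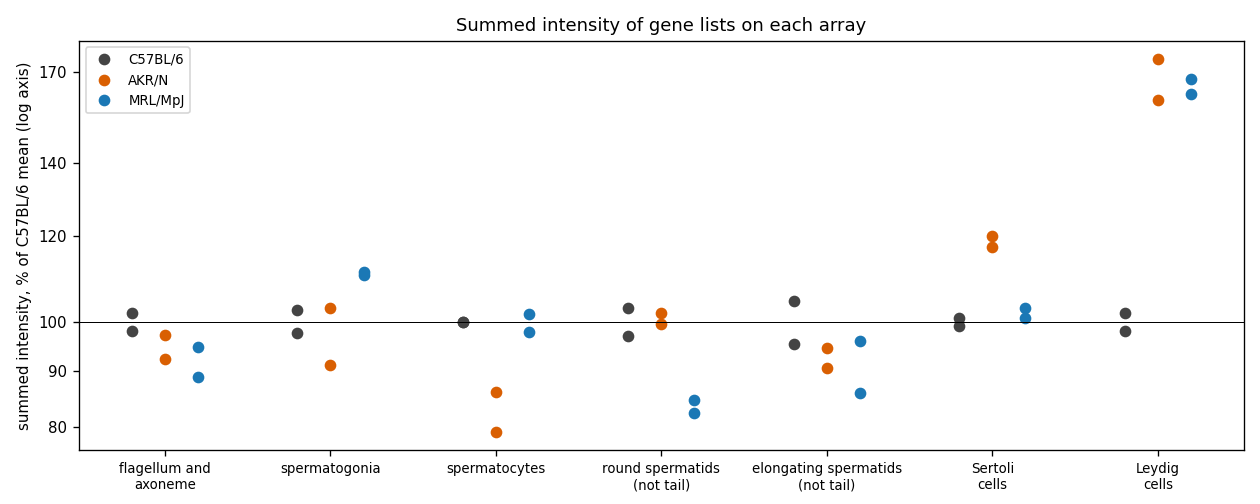
Summed intensity of gene lists on each array as a percent of the mean of the 2 C57BL/6 arrays (log axis), for flagellum genes and for markers of testicular cell types. The words 'not tail' on the axis mean outside the flagellum lists. Points are single arrays coloured by strain; flagellum genes lie between 88.9% and 102%, round spermatid genes fall to 82.4% and 84.7% in MRL/MpJ, and Leydig cell genes reach 160% to 175% in AKR/N and MRL/MpJ.

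A wider list of 177 other flagellum and cilium genes, of which 130 were tested, was called in 39 cases for MRL/MpJ minus C57BL/6 (30%, 12 higher and 27 lower), beside 10% of all probe sets and 19.6% of genes with a mean of at least 300 units. It was called in 20 cases for AKR/N minus C57BL/6 (15.4%, 7 higher and 13 lower), beside 9.97% and 18.6%. For MRL/MpJ minus AKR/N it was called in 30 cases (23.1%, 11 higher and 19 lower), beside 6.91% and 17.7%. The named genes are the 3 with the smallest adjusted p in each direction and comparison.

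Ccdc38, a coiled-coil protein of the manchette and flagellum, had the smallest adjusted p of the list. It had 1457 and 1448 units in C57BL/6, 1326 and 1191 in AKR/N and 257 and 251 in MRL/MpJ. MRL/MpJ was thus far below both other strains, by -2.24 against AKR/N (SE 0.0769, adjusted p = 9.09e-08), and the call against C57BL/6 had an adjusted p of 3.79e-08. Both calls held under each alternative tried. Cfap161, a protein inside the doublet microtubule, was higher in MRL/MpJ, at 2061 and 2263 units against 1159 and 1255 in C57BL/6 and 982 and 1099.9 in AKR/N (0.83, adjusted p = 9.99e-05, and 1.04, adjusted p = 2.85e-05). Dnah7a, an inner-arm heavy chain, was high in C57BL/6 at 199 and 178 units, against 38.3 and 35.2 in AKR/N (-1.95, SE 0.152, adjusted p = 2.07e-05). In MRL/MpJ it was at 43.4 and 35.2 units (-1.89, adjusted p = 2.7e-05).

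Calls of several other named genes were lost under an alternative. Stk36, a kinase needed for central pair assembly, had 429 and 356 units in C57BL/6 against 128 and 97.9 in AKR/N and 104 and 103 in MRL/MpJ (-1.67 and -1.76, adjusted p = 3.16e-05 and 2.17e-05), but its next brightest probe set gave -0.04 and 0.05. Drc3, of the dynein regulatory complex, was lower in MRL/MpJ than in C57BL/6 (-1.07, adjusted p = 1.88e-05; next probe set -0.68, adjusted p = 0.118). Ttll1, a tubulin polyglutamylase subunit, was higher in MRL/MpJ than in C57BL/6 (1.09, adjusted p = 8.26e-05), and the mean of its probe sets gave 0.20. It was also higher than in AKR/N (0.66, adjusted p = 0.00357). Dnah6, an inner-arm heavy chain, was higher than in C57BL/6 in both AKR/N (0.60, adjusted p = 0.00316) and MRL/MpJ (0.50, adjusted p = 0.00835). Its MRL/MpJ call was lost without C57BL/6 replicate 2 (adjusted p = 0.0559) or MRL/MpJ replicate 2 (0.0773). Ift57, of the intraflagellar transport complex, was higher in AKR/N than in C57BL/6 (0.47, adjusted p = 0.00861). That call was lost with the mean of its probe sets (0.31, adjusted p = 0.26), when C57BL/6 replicate 1 was left out (0.0535) and when AKR/N replicate 2 was (0.096). Fsip1, a fibrous sheath interacting protein, was lower in AKR/N than in C57BL/6 (-0.58, adjusted p = 0.000832; next probe set -0.23, adjusted p = 0.174).

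Between MRL/MpJ and AKR/N, the dynein assembly factor Dnaaf4 was higher in MRL/MpJ (0.58, adjusted p = 0.00297; next probe set -0.26). The microtubule stabiliser Saxo2 (-0.93, adjusted p = 7.92e-05; next probe set 0.05) and the sperm transporter Slc22a14 (-0.63, adjusted p = 0.000403) were lower. Of 5 tested regulators of ciliary genes, the X-box factor Rfx1 was higher in AKR/N than in C57BL/6 (1.00, adjusted p = 0.000134), though its next probe set was called the other way (-0.47, adjusted p = 0.0404). Foxj1, the forkhead factor of motile cilia, was higher in AKR/N than in C57BL/6 (0.45, adjusted p = 0.0191) and lower in MRL/MpJ than in AKR/N (-0.64, adjusted p = 0.00453). Rfx2, the X-box factor required for spermatid development in mice, was not called, at 666 and 614 units in C57BL/6, 671 and 599.96 in AKR/N and 701 and 666 in MRL/MpJ. Without the variance trend the calls of Dnah6, Ift57, Dnaaf4 and Slc22a14, and that of Ttll1 against AKR/N, were lost. Foxj1 and Rfx2 were singled out for these roles after their values had been seen.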

How the data were processed

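The authors deposited 1 intensity value per probe set and array on a linear scale, for 45101 probe sets of which 64 are array controls. The summarization software is not given in the sources used here; the trimmed mean of 125.001 on every array, leaving out 2% at each end, shows that arrays had been scaled to a common level before deposit. Labels named the strain and replicate number of each array, and the series' design gives 2 mice a strain. Probe sets were named from the platform annotation (34945 with 1 symbol, 932 with several and 9160 with none), and Dnai1 and Dnai2 were matched through RefSeq synonyms.

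Control probe sets were left out, a pseudocount of 16 was added before taking log2, and 29692 probe sets above the 40th percentile of their array on at least 2 of 6 arrays were tested with limma 3.58.1 in R 4.3.3 (lmFit, eBayes with a variance trend, 3 residual and 7.58 prior degrees of freedom). All p-values are two-sided and adjusted by Benjamini-Hochberg over all probe sets tested. The p-values rest on the spread between the 2 samples of a strain, pooled over the 3 strains. That spread is moderated toward the spread of other probe sets of similar intensity. The small number of arrays limits the precision. Alternatives were quantile normalization, median centring, pseudocounts of 1 and 64, other filters, no variance trend, fits of 4 arrays, a replicate block, single arrays left out, and other probe sets of a gene. The mean of a gene's probe sets took in all of them, including those too dim to be tested. The background among genes with a mean of at least 300 units was added after the data had been seen.

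The members and lists were chosen with earlier results of these data known. Named were the members called in a pairwise comparison or by the F test, the brightest member of a role with none called, the members not tested, and up to 3 genes per comparison and direction of the wider list. Promoter sequences are RefSeq's for GRCm38.p6, and windows of Rsph1, Odf1, Cabyr and Rsph4a were not used here.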

Additional observations from a re-analysis of the deposited data

How the results depend on the processing

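Of the 25 calls of single flagellum genes, none was kept under all alternatives run for it (at most 17). Fits without the variance trend ended 23, the next brightest probe set 16 of 17, the mean of a gene's probe sets 14, no filter 8, and median centring and fits of the 4 arrays compared 5 each. Quantile normalization, pseudocounts of 1 and 64, the 60th percentile filter and the replicate block ended 0; leaving out 1 array ended 8 to 12. Counts of flagellum genes called were 9, 8 and 8 (MRL/MpJ minus C57BL/6, AKR/N minus C57BL/6, MRL/MpJ minus AKR/N) and 15 by the F test. Without the variance trend limma called 1, 1, 0 and 0, where 8, 7, 10 and 10 had an unadjusted p below 0.05. With 1 array left out they ranged from 3 to 7, 3 to 7, 3 to 10 and 8 to 12. No filter gave 5 and 5 for AKR/N minus C57BL/6 and MRL/MpJ minus AKR/N, and the mean of probe sets 5 and 4, with 9 by the F test. For MRL/MpJ minus AKR/N the 60th percentile filter gave 13 and the replicate block 14. Same-numbered arrays deviated together only weakly (correlations of 0.0425, 0.0493 and 0.0466). The labels do not say whether equal numbers share a batch or day, and these correlations cannot decide it. The wider list (39, 20 and 30) gave 8, 4 and 3 without the trend, 25 and 18 against C57BL/6 and AKR/N for MRL/MpJ with the mean of probe sets, and 18 to 32, 10 to 17 and 12 to 31 with 1 array left out.

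The median difference of the flagellum genes (-0.1099, -0.0535 and -0.0705) moved to -0.0377, -0.0111 and -0.0267 after quantile normalization, to -0.0634 and -0.0110 in the first and second comparison after median centring, and to -0.01 in the second with the mean of probe sets. With 1 array left out it ranged from -0.129 to -0.0554, from -0.0635 to 0.012 (without AKR/N replicate 1) and from -0.099 to -0.0157 (without AKR/N replicate 2). Under median centring 39.4% and 39.7% of all calls against C57BL/6 were lower, against 49.4% and 49%. Directions that turned did so with another probe set or the mean of a gene's probe sets. For MRL/MpJ minus C57BL/6 these were Dnali1 (mean -0.17, next -0.60) and Stk36 (next 0.0477). For AKR/N minus C57BL/6 they were Spag16 (next 0.20), Cfap43 (mean 0.16, next 0.99) and Rfx1 (next -0.47). For MRL/MpJ minus AKR/N they were Dnai2 (next 0.51), Cfap43 (mean -0.12, next -0.77), Dnaaf4 (next -0.26) and Saxo2 (next 0.0525). The causes were not tested.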
